A study of Mus musculus with 6 samples.

Results

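Collagen chain genes encode the polypeptides from which every collagen molecule is wound, and the deposited table of RNA-seq values listed 41 of them among 20275 protein-coding gene symbols. Members were the rows with a coding RefSeq identifier whose symbol was Col, a number, the letter a and a number, with the row of the highest mean kept for the 5 symbols that had several rows. RNA had been sequenced from primary wildtype (WT) mouse embryonic fibroblasts (MEFs), which were taken from littermate embryos of 13.5 days, belonged to the strain given as C57BL/6x 129 and had been passaged 4 times. There was 1 library of untreated MEFs. A further 3 came from MEFs kept for 1.5 hr, for 6 hr or for 24 hr in TNFα, a cytokine that signals to NF-κB, at 20 ng/mL. One more library, again of untreated MEFs, held the DNA bound by histone H3 trimethylated at lysine 4 (H3K4me3), a mark of active promoters, and it was sequenced beside 1 input library without antibody. Since each time had 1 library, no difference below was tested, and all 3 later times were set against the same untreated library.

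Collagens are the main fibrous proteins of the extracellular matrix, and fibroblasts are their chief makers in connective tissue. A chain holds long stretches of a repeat that opens with glycine, the one residue small enough to sit at the centre of the collagen helix, and chains of a type assemble inside the endoplasmic reticulum before they are secreted, trimmed and crosslinked. Fibrillar collagens form the cable-like fibrils of skin and bone, the chains of type IV form the sheet of basement membranes, those of type VI form beaded filaments around cells, type VII anchors the epidermis to the dermis, and the FACITs sit on the surface of fibrils. Several collagen genes of fibroblasts are known to respond to inflammatory cytokines, and type I is the usual readout.

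The glycine repeat was plain in the coding sequence. GGN, the codon of glycine, made up a median of 24.3% of the codons of the 17 collagen genes expressed here (above a mean of 1 RPKM, a read number scaled to transcript length and library size, over the 4 RNA libraries), and a median of 6.03% over 21637 annotated coding genes. In Col1a1, GGN stood at the first of each 3 codons for 338 repeats without a break, in Col1a2 for 339, in Col3a1 for 344 and in Col5a3 for 337. The longest such run was 75 repeats in Col7a1 and 40 in Col4a1, whose repeats are interrupted, and 7 of the 17 expressed genes had a run of over 300. The first 10 repeats of the longest run follow for the chains on which the results below turn, from the GENCODE transcripts on mm9, with positions counted from the A of the start codon and the GG of each glycine codon in capitals.
Col1a1 coding bases 502 to 591: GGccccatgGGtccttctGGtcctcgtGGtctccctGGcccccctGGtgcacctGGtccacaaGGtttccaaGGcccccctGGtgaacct
Col1a2 coding bases 289 to 378: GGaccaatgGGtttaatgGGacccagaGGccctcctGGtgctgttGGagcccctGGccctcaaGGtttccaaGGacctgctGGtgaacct
Col5a1 coding bases 1675 to 1764: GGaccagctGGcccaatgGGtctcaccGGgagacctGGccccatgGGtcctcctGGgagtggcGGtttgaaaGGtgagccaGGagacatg
Col5a2 coding bases 631 to 720: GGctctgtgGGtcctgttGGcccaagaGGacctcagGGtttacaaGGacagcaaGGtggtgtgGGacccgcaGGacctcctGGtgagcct
Col5a3 coding bases 1432 to 1521: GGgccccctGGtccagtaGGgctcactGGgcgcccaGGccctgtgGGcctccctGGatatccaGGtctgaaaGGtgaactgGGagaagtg
Col7a1 coding bases 7552 to 7641: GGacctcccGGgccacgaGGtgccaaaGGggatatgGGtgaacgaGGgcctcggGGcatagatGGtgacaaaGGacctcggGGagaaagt
The base after GG is free, and chains differed in it. G or C stood there in 27.5% of the glycine codons of Col1a1 and 29.1% of those of Col5a2, but in 47.3% of those of Col5a1 and 47.3% of those of Col5a3. Whole transcripts were ordered otherwise, with 58.9% GC in Col1a1, 49.6% in Col5a2, 58.0% in Col5a1 and 61.6% in Col5a3. Base content matters for the comparisons below, because the change of a gene between libraries moved with the GC content of its transcript.

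Of the 41 collagen genes, 17 had a mean above 1 RPKM and 24 did not. The lowest mean inside this threshold was that of Col11a1 (1.74 RPKM) and the highest outside it was that of Col11a2 (0.445 RPKM), so no member lay close to it. A gene could pass the threshold through a single library in which it was high. Each of the 17 was nonetheless above 1 RPKM in all 4 libraries, the lowest value being 1.24 RPKM (Col11a1 at 24 hr). The 17 genes do not stand for all members. The expressed genes held 8 of 11 fibrillar chains, 2 of 6 type IV chains, 2 of 4 chains of the type VI family, 2 of 9 FACITs, 1 of 3 network chains, 1 of 2 multiplexins and Col7a1. None of the 4 transmembrane collagens passed. Among the 24 genes below the threshold, 14 were under 0.1 RPKM in every library, and the highest value in any library was 1.03 RPKM, in Col11a2 at 6 hr. Some chains of cartilage were among the low ones, with Col2a1 at 0.118 RPKM and Col9a1 at 0.00707 RPKM in untreated MEFs. Others passed, with Col27a1 at 8.77 RPKM and Col11a1 at 2.35 RPKM. Col6a3, the remaining main chain of type VI, was not analysed here.

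The cells carried the markers of fibroblasts, with 9 of 10 genes of a fibroblast list above a mean of 1 RPKM. That list summed to 472 RPKM in the untreated library and 762, 223 and 491 RPKM at 1.5, 6 and 24 hr. Of markers of other cell types, the 4 endothelial genes summed to at most 0.0588 RPKM and the 4 epithelial genes to at most 0.0414 RPKM, Epcam was listed at 0 in every library, and no gene of 4 chondrocyte or 3 Schwann cell markers passed a mean of 1 RPKM, although Sox9 was at 1.13 RPKM in untreated MEFs. Of 4 osteoblast markers Runx2 passed (0.864 to 2.38 RPKM, highest untreated), and the list summed to between 0.917 and 2.48 RPKM. Of 3 adipocyte markers Fabp4 passed (1.13 to 3.51 RPKM) and Adipoq was listed at 0, and of 3 muscle markers Des passed (1.90 to 3.71 RPKM) and Myod1 was listed at 0. Of 4 macrophage markers, Cd68 and Csf1r passed, and the list summed to between 3.67 and 14.2 RPKM, lowest at 6 hr. The part of these cells in the results was not tested, and in bulk RNA fewer cells of a type and less RNA per cell cannot be told apart.

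Col1a1, the α1 chain of type I and the chief collagen of skin, bone and tendon, was the strongest member in each library. It was at 514 RPKM in untreated MEFs, 278 RPKM at 1.5 hr, 236 RPKM at 6 hr and 142 RPKM at 24 hr, and ranked 14th, 57th, 14th and 92nd among coding genes. Its value after 24 hr was 3.61-fold lower than untreated. Col1a2, the partner chain of type I, was at 117 RPKM, 108 RPKM, 59.7 RPKM and 76.1 RPKM, and did not reach a 2-fold difference at any time. Together the 41 genes made up 1.29% of the summed coding RPKM in untreated MEFs, 0.707% after 1.5 hr, 1.197% after 6 hr and 0.483% after 24 hr. These shares do not move with a common scaling of a library, and the 24 hr share was the lowest while the 6 hr share was close to the untreated one. Col1a1 alone was 50.4% of the collagen sum in untreated MEFs and 38.6% at 24 hr.

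Type V and type III copolymerize with type I and set the width of its fibrils. Col5a1 was at 61.9 RPKM in the untreated library, 36.1 RPKM at 1.5 hr, 27.6 RPKM at 6 hr and 19.8 RPKM at 24 hr. Col3a1 was at 25.4 RPKM, 29.3 RPKM, 13.9 RPKM and 11.5 RPKM, and Col5a2 was at 23.9 RPKM, 32.0 RPKM, 17.1 RPKM and 18.03 RPKM. Col5a1 was thus lower at each later time, whereas Col3a1 and Col5a2 were highest at 1.5 hr, as were 59.8% of coding genes as deposited. Col5a3, a less widespread chain of type V, went its own way. It was at 14.4 RPKM untreated, 11.4 RPKM at 1.5 hr, 38.5 RPKM at 6 hr and 13.7 RPKM at 24 hr. The 6 hr library was high and the other 3 were close to each other. Col27a1, a fibrillar chain of cartilage, was at 8.77 RPKM, 3.27 RPKM, 6.06 RPKM and 1.94 RPKM.

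The type VI chains, which build the filaments around fibroblasts, were low at both later times, and Col6a2 had the lowest log2 ratio of the 17 genes at 6 hr and at 24 hr. Col6a2 was at 95.9 RPKM in untreated MEFs, 49.5 RPKM at 1.5 hr, 21.6 RPKM at 6 hr and 17.0 RPKM at 24 hr. Col6a1 was at 78.0 RPKM, 53.2 RPKM, 21.3 RPKM and 24.0 RPKM. Both were lower at 1.5 hr and lower again at 6 hr, and both were still low at 24 hr, Col6a2 5.64-fold and Col6a1 3.24-fold below untreated. Of the type IV chains of basement membranes, Col4a2 was at 21.6 RPKM, 15.1 RPKM, 8.23 RPKM and 9.07 RPKM, and Col4a1 was at 11.9 RPKM, 13.8 RPKM, 7.47 RPKM and 9.21 RPKM, within 2-fold of untreated throughout.

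Col7a1, the anchoring fibril chain made by keratinocytes and dermal fibroblasts, moved in both directions. It was at 9.34 RPKM in untreated MEFs, 3.19 RPKM at 1.5 hr, 27.5 RPKM at 6 hr and 3.96 RPKM at 24 hr. The 6 hr value was 2.95-fold above untreated, and the other 2 were 2.93-fold and 2.36-fold below it. The FACIT Col16a1 was at 10.1 RPKM, 3.48 RPKM, 12.02 RPKM and 3.24 RPKM, low in the same libraries as Col7a1 but near its untreated level at 6 hr. Col12a1, the FACIT of dense connective tissue, was at 10.9 RPKM, 14.5 RPKM, 4.89 RPKM and 7.88 RPKM. The remaining expressed members, Col8a1, Col18a1 and Col11a1, lay between 1.24 and 7.17 RPKM in all libraries. As deposited, the highest value was the untreated one in 8 of the 17 genes, against 31.7% of coding genes. The lowest value came after 6 hr in 8 of the 17 genes and after 24 hr in 7, against 73.8% and 11.8% of coding genes, and the highest after 1.5 hr in 6, against 59.8%. These counts changed with the scaling. With values centred on the coding median of each library, added after seeing the data, the lowest value came after 24 hr in 12 genes (15.9% of coding genes) and after 6 hr in 1 (24.6%). The highest then was the untreated one in 10 (32.2%), that after 6 hr in 7 (18.7%), and none after 1.5 hr (28.6%). No collagen gene was highest after 24 hr as deposited, after this centring or in bins of GC content. Of coding genes 6.12%, 20.5% and 21.7% were. In joint bins of GC content and length Col18a1 was highest after 24 hr, with log2 ratios of 0.92, 0.39 and 0.96 at 1.5, 6 and 24 hr.

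**Figure D1:**
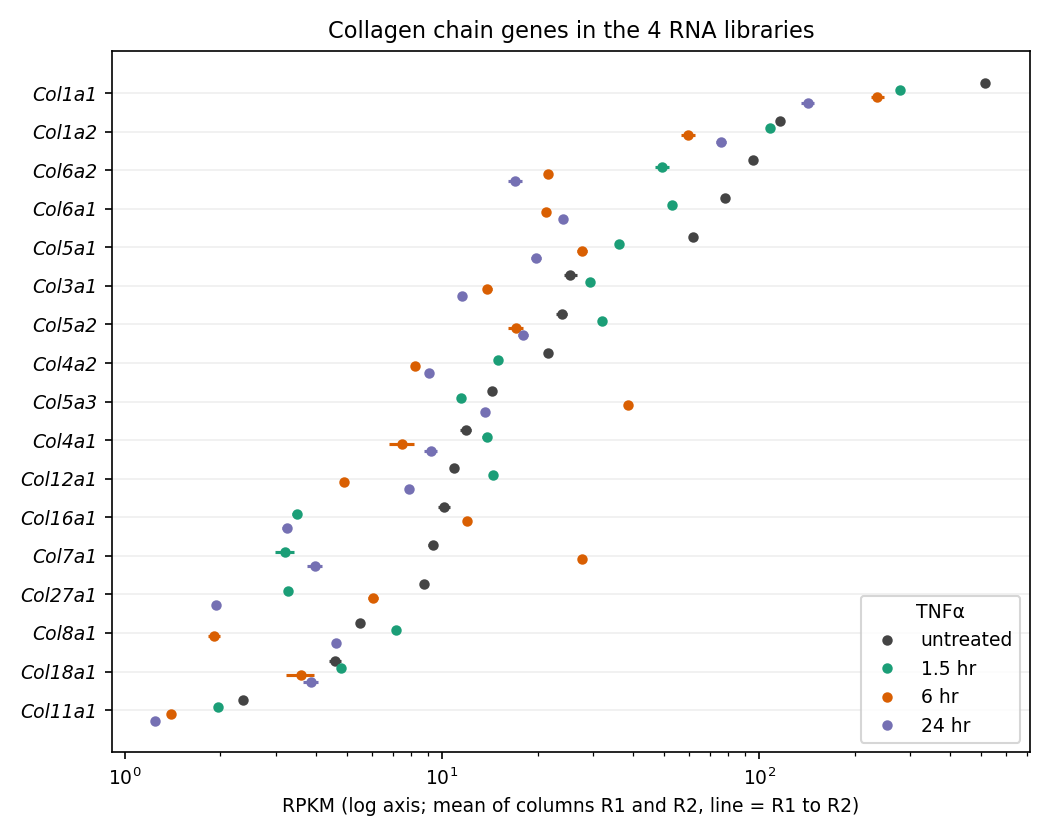
Level of the 17 expressed collagen chain genes (rows) on a log axis of RPKM in the untreated library and after 1.5, 6 and 24 hr with TNFα, each point the mean of the 2 deposited columns of a library and each line the span between them. Col1a1 lies between 142 and 514 RPKM above all others, and Col5a3 and Col7a1 have their 6 hr point far to the right of the rest of their row.

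Each library had 2 deposited columns, R1 and R2, and the sources used here do not say which reads they hold, so they were not treated as replicates. The columns differed by at most 22.2% in an expressed member (Col18a1). All 3, 9 and 9 calls made below at 1.5, 6 and 24 hr were found in either column by itself.

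As deposited, the later libraries were shifted as a whole. The median log2 ratio to untreated over 6569 coding genes above 1 RPKM was 0.45 after 1.5 hr, -0.74 after 6 hr and 0.11 after 24 hr, and the collagen genes are read against these. Their own medians were -0.33, -0.87 and -1.14. Relative to the coding median they were thus lower by 0.79 after 1.5 hr, by 0.13 after 6 hr and by 1.25 after 24 hr on the log2 scale. The collagen median was far from that of coding genes at 24 hr and close to it at 6 hr.

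At 1.5 hr, no collagen gene was at least 2-fold higher than untreated (29.9% of coding genes were) and 3 of 17 were at least 2-fold lower, against 7.82% of coding genes. These were Col7a1 (log2 ratio -1.55), Col16a1 (-1.54) and Col27a1 (-1.42). After centring on the coding median 7 were lower against 17.5%, the additional genes being Col1a1, Col5a1, Col6a1 and Col6a2. Coding genes were then put into 20 bins by the GC content of their transcripts, and the median of its bin was taken from the log2 ratio of a gene. Within these bins 2 were lower against 10.6%, Col27a1 (-1.01) and Col11a1 (-1.16). No collagen gene was at least 2-fold higher in these scalings either, with a background of 15.7% after centring and 10.7% in bins of GC content. In joint bins of GC content and length Col4a1 was higher (1.08) and none was lower. Col5a2, Col12a1, Col8a1 and Col3a1 lay above untreated as deposited (0.42, 0.41, 0.38 and 0.21) and below their GC bin (-0.40, -0.52, -0.63 and -0.30).

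At 6 hr, Col5a3 and Col7a1 were at least 2-fold higher than untreated, 2 of 17 against 1.74% of coding genes. Their log2 ratios were 1.42 and 1.56, above 98.9% and 99.1% of coding genes. The same pair was called after centring on the coding median, against 7.12%. They were 2-fold higher under each of 7 scalings (as deposited, centred on the coding median, equal sums, a trimmed mean, and bins of GC content, of length and of both), with log2 ratios of up to 2.30 for Col5a3 and 2.44 for Col7a1, the latter within bins of GC content. Col16a1, at 0.25 as deposited, joined them within bins of GC content at 1.13, where the background was 4.92%. In the other direction 7 collagen genes were at least 2-fold lower, Col6a2 (-2.15), Col6a1 (-1.87), Col8a1 (-1.53), Col4a2 (-1.39), Col5a1 (-1.17), Col12a1 (-1.15) and Col1a1 (-1.12). Of coding genes 31.6% were as well. With centring on the coding median 2 of these calls remained, Col6a1 and Col6a2, against a background of 3.17%, and within bins of GC content Col6a2 (-1.18) and Col8a1 (-1.03), against 2.59%. Col1a1 was at -0.18 within its bin. Col1a2 (-0.05), Col3a1 (-0.03) and Col5a1 (-0.26) were near the centre of theirs too, and Col6a1 was at -0.995, just short of the threshold.

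At 24 hr, 9 of 17 collagen genes were at least 2-fold lower than untreated, against 12.7% of coding genes, and none was higher, against 16.8%. The lowest log2 ratios were those of Col6a2 (-2.50), Col27a1 (-2.18), Col1a1 (-1.85), Col6a1 (-1.70), Col16a1 (-1.65) and Col5a1 (-1.64), followed by Col4a2 (-1.25), Col7a1 (-1.24) and Col3a1 (-1.14). All 17 lay below untreated, whereas 45.3% of coding genes did. After centring on the coding median the same 9 genes and Col11a1 were 2-fold lower, against 15.2%. Within bins of GC content 8 were, against 9.05%, and none was higher, against 10.3%. Shared with the values as deposited were 6 of them, Col6a2 (-2.19), Col27a1 (-1.54), Col6a1 (-1.31), Col3a1 (-1.25), Col1a1 (-1.23) and Col5a1 (-1.19). Col16a1 (-0.63), Col4a2 (-0.62) and Col7a1 (-0.22) were no longer past the threshold in bins of GC content, where Col5a3 lay at 0.94. In joint bins of GC content and length Col6a2 (-1.81) and Col6a1 (-1.33) stayed at least 2-fold lower, while Col1a1 was at -0.64 and Col27a1 at -0.96, and Col5a3 was at least 2-fold higher (1.14).

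**Figure D2:**
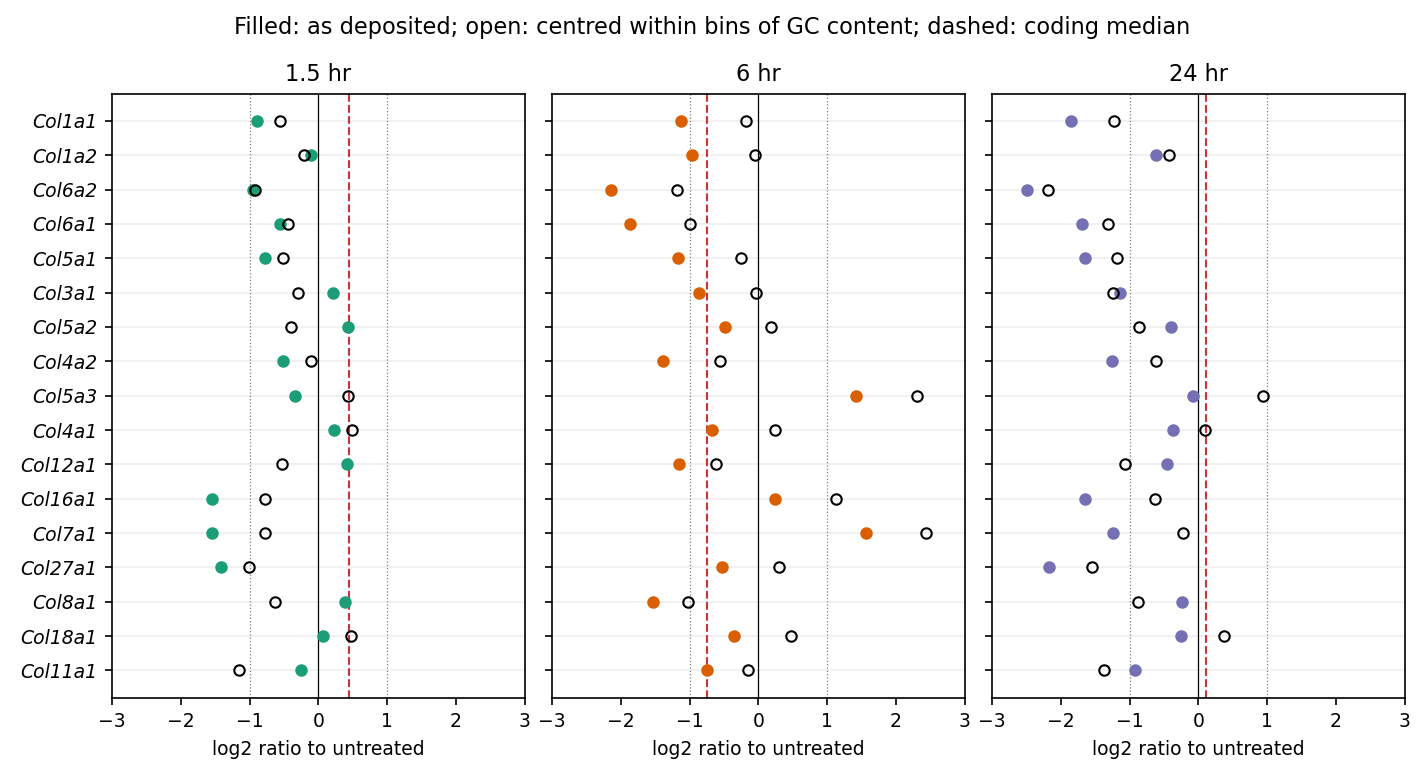
Log2 ratio to the untreated library of the 17 expressed collagen chain genes (rows) at 1.5, 6 and 24 hr, filled as deposited and open after centring within bins of GC content, with the median of coding genes as deposited dashed in red and 2-fold differences dotted. At 24 hr all filled points lie below 0, from -2.50 for Col6a2 to -0.08 for Col5a3, and at 6 hr Col5a3 and Col7a1 stand alone to the right of 1 as deposited.

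The ratios of coding genes moved with GC content. When coding genes were put into 10 groups of equal size by GC content, the lowest group had a median log2 ratio of 1.36 at 1.5 hr, and of 0.94 at 24 hr, and the highest group had -0.58 and -0.80. At 6 hr the medians went from -0.15 in the lowest group to -0.93 in group 8 of 10, and the highest group had -0.86. The expressed collagen transcripts were rich in GC, with a median of 57.7% against 52.8% for coding genes, from 46.8% in Col8a1 to 61.6% in Col5a3, and 12 of the 17 lay above the coding median. They were also long, with a median of 6338 bases against 2655, and each was longer than the coding median. Across the 17 genes, which share libraries and are no replicates of each other, Spearman's rho of GC content and log2 ratio was -0.65 after 1.5 hr, 0.51 after 6 hr and -0.18 after 24 hr, beside -0.56, -0.36 and -0.55 over 6444 coding genes. The collagens ran with the coding genes at 1.5 hr and against them at 6 hr, where Col7a1 (61.6% GC), Col5a3 and Col16a1 (61.4%) were the highest ratios. The part of base content in each ratio was not tested beyond the bins given above.

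**Figure D3:**
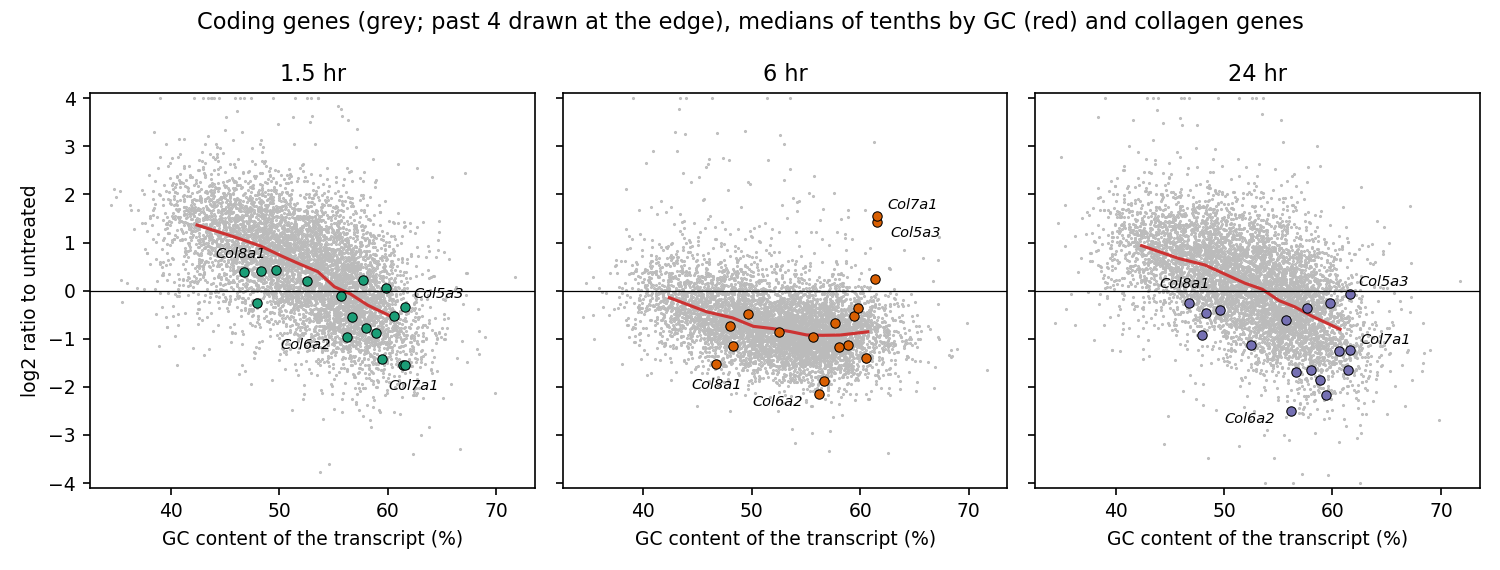
Log2 ratio to untreated against the GC content of the transcript (percent) for 6444 coding genes (grey, drawn at the edge when beyond 4), the medians of 10 groups of equal size by GC content (red line) and the 17 expressed collagen chain genes (coloured) at 1.5, 6 and 24 hr. The red line falls from 1.36 to -0.58 at 1.5 hr and from 0.94 to -0.80 at 24 hr, and Col5a3 and Col7a1 stand 2.30 and 2.44 above the centre of their GC bin at 6 hr.

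Chains that share a trimer or a fibril were compared within a library, where a common scaling has no effect. Type I is built from a pair of α1 chains and one α2 chain. The ratio of Col1a1 to Col1a2 was 4.40 in untreated MEFs, 2.56 after 1.5 hr, 3.96 after 6 hr and 1.87 after 24 hr. The ratio was lowest at 24 hr, a log2 change of -1.24, or -0.80 after centring in bins of GC content. The ratio of Col6a2 to Col6a1 was 1.23, 0.932, 1.02 and 0.707. These transcripts have nearly the same GC content (56.2% and 56.7%), and the log2 change at 24 hr was -0.80 as deposited and -0.88 in GC bins.

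Among the 7 pairs of expressed chains, the largest log2 change was in type V. The ratio of Col5a3 to Col5a1 was 0.233 in untreated MEFs, 0.317 after 1.5 hr, 1.40 after 6 hr and 0.690 after 24 hr. At 6 hr the α3 message exceeded the α1 message, and the log2 change from untreated was 2.58 as deposited and 2.56 in GC bins. The ratio of Col5a1 to Col5a2 was 2.59, 1.13, 1.61 and 1.097. Here the chains differ in GC content (58.0% and 49.6%), and the log2 change at 24 hr went from -1.24 to -0.32 with GC bins. The ratio of Col4a2 to Col4a1 was 1.82, 1.09, 1.101 and 0.985, with a log2 change at 24 hr of -0.88, or -0.71 in GC bins. The ratio of Col3a1 to Col1a1, chains that share fibrils but not a trimer, was 0.0494, 0.106, 0.0589 and 0.0811. Its log2 change at 1.5 hr was 1.097 as deposited and 0.25 in GC bins. The ratio of Col11a1 to Col5a1 was between 0.0380 and 0.0629 throughout. Type VIII could not be compared on an equal footing, since Col8a2 (0.658 RPKM untreated) was below the threshold while its partner Col8a1 was above it.

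**Figure D4:**
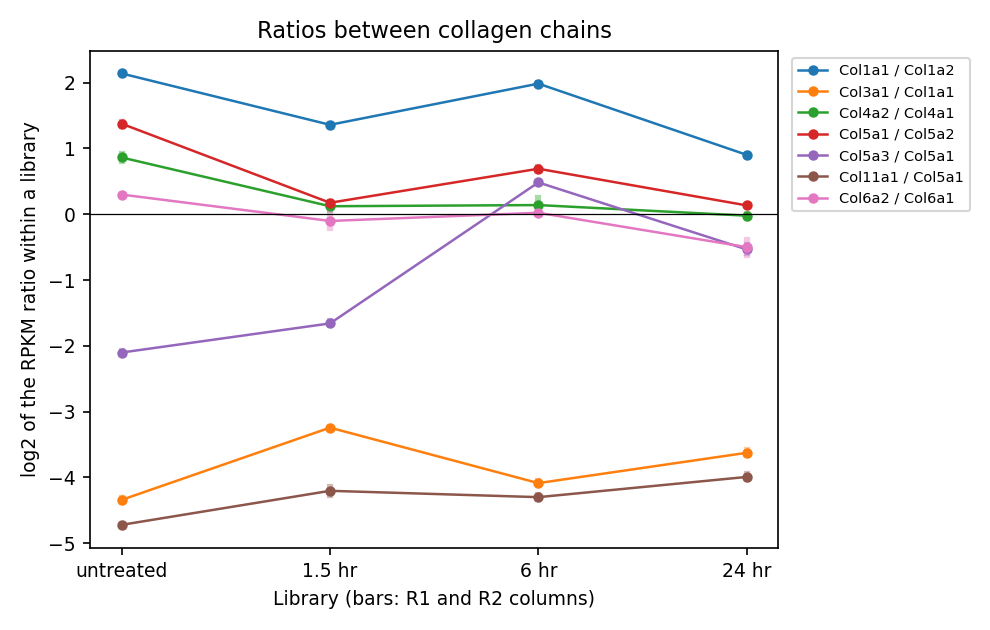
Log2 of the RPKM ratio of 7 pairs of collagen chains within each of the 4 RNA libraries, with the values of the R1 and R2 columns as bars. The line of Col5a3 over Col5a1 rises from -2.10 in untreated MEFs to 0.48 at 6 hr, and that of Col1a1 over Col1a2 is lowest at 24 hr at 0.90.

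H3K4me3 was present at the starts of most expressed collagen genes before treatment. A peak lay within 1 kb of an annotated start for 14 of the 17 (82.4%), against 92.2% of coding genes above the same level. Those without were Col16a1, Col18a1 and Col27a1, and none of them had a peak within 5 kb either. Of the 24 collagen genes below 1 RPKM, 4 had a peak (16.7%, against 35.7% of coding genes at that level), namely Col23a1, Col25a1, Col4a5 and Col4a6. With 1 ChIP library these shares were not tested.

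The strongest collagen genes had broad peaks. On mm9, the Col1a1 peak at chr11:94793384-94807645 was 14262 bp long and held 4339 tags, longer than 99.9% of the 11157 peaks in the list, whose median was 3187 bp and 1049 tags. It covered much of the gene, which the annotation places at chr11:94797538-94814356. The peak of Col5a1 (9485 bp and 4485 tags) and that of Col1a2 (9400 bp and 2494 tags) were longer than 99.1% and 99.0% of peaks. The type VI genes had peaks of ordinary size at high expression, with 3805 bp for Col6a2 and 3263 bp for Col6a1. The genes that were 2-fold higher at 6 hr, Col7a1 and Col5a3, had peaks of ordinary length (3126 and 3582 bp) with few tags in the untreated cells. Col7a1 had 330 tags, fewer than most peaks (percentile 8.32), at a fold enrichment of 20.2, close to the lowest in the list, 20. Col5a3 had 640 tags (percentile 22.6) at a fold enrichment of 26.8. Low fold enrichment was not particular to this pair, with 25.5 for Col8a1 and 27.4 for the peak shared by Col4a1 and Col4a2. Col8a1 and Col4a2 were at least 2-fold lower at 6 hr as deposited. Whether the peaks change with TNFα was not measured.

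**Figure D5:**
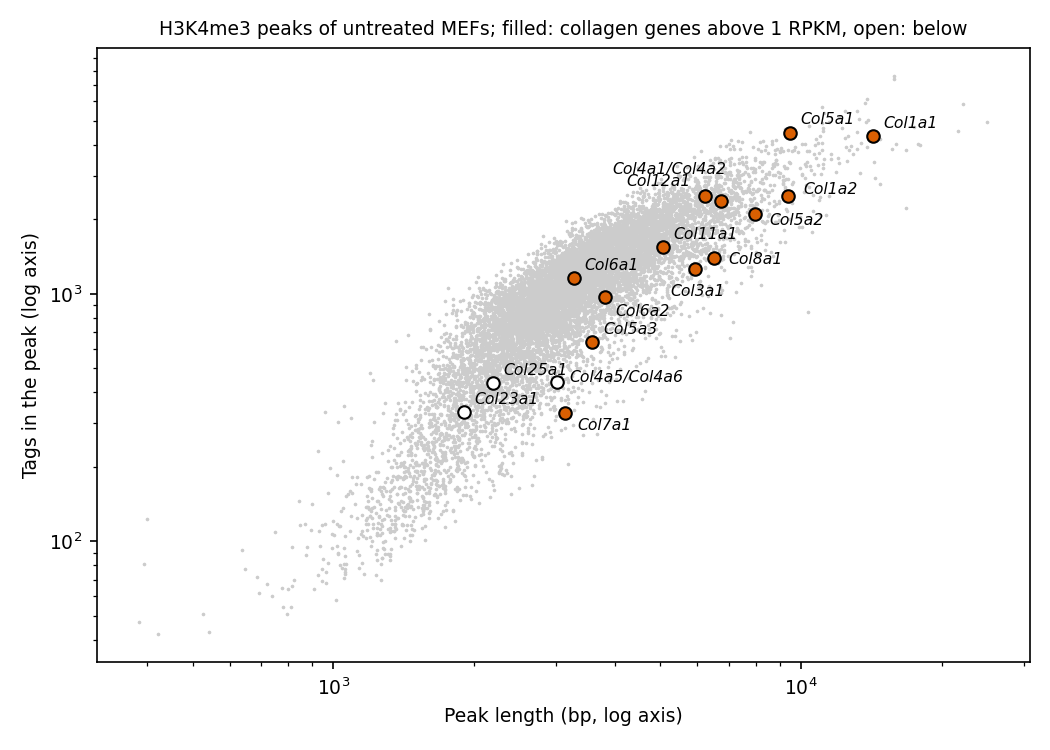
Tags against length (bp) of the 11157 H3K4me3 peaks of untreated MEFs on log axes. Peaks within 1 kb of a start are marked for expressed (filled) and low (open) collagen chain genes. Col1a1 and Col5a1 lie at the upper right with 4339 and 4485 tags, and Col7a1 has the fewest tags of the expressed members, 330.

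Some collagen genes share a promoter region. Col4a1 and Col4a2 are read away from each other, and from the Col4a2 start to that of Col4a1 inclusive there are 22 bases that both transcripts hold. One peak of 6749 bp and 2365 tags at chr8:11309412-11316160 covered both starts. A smaller peak of 439 tags on the X chromosome covered starts of Col4a5 but none of Col4a6. The nearest Col4a6 start lay 799 bp outside it. The bases of the shared type IV start follow from the mm9 genome, 5′ to 3′ on the strand named. With them are the 250 bases before the outermost annotated start inside the peak of Col1a1, Col5a3 and Col7a1. Col1a1 was the strongest member, and the other 2 were higher at 6 hr. Capitals mark the motifs CCAAT and GGGCGG, or ATTGG and CCGCCC where they lie on the other strand.
Col4a2 start to Col4a1 start, chr8:11312805-11312826, plus strand: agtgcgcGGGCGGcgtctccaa
Col1a1, chr11:94797288-94797537, plus strand: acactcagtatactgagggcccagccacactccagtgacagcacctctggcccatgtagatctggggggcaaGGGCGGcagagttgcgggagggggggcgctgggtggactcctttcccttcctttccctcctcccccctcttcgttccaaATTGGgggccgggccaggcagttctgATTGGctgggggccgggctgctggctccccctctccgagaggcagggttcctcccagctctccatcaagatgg
Col5a3, chr9:20619512-20619761, minus strand: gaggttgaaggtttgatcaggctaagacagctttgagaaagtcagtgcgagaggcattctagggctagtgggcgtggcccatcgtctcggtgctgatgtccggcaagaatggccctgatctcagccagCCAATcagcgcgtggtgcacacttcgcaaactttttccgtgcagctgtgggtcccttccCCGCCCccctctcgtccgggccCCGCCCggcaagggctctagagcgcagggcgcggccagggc
Col7a1, chr9:108855381-108855630, plus strand: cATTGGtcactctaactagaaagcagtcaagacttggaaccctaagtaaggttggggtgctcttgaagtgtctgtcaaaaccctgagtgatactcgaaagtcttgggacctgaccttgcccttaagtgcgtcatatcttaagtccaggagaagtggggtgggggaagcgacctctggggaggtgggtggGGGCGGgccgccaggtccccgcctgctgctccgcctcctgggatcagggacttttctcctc
Col1a1 held CCAAT on the other strand at 69 to 73 and at 95 to 99 bases before its outermost start, Col5a3 on its own strand at 118 to 122 bases and Col7a1 on the other strand at 245 to 249 bases. Col1a1 and Col7a1 each had a further annotated start inside the peak, at chr11:94797567 and chr9:108855790. Distances from these starts are larger. Promoter windows of RefSeq (build GRCm38.p6, 250 bases before to 50 after a start) were matched for 14 of the 17 expressed members, without Col1a1, Col5a2 and Col12a1. On either strand, GGGCGG occurred in 12 of the 14 and in 35.9% of 27025 promoters, CCAAT in 8 and in 37.9%, and TATAAA in 1 (Col3a1) and in 14.2%. The NF-κB consensus motif occurred in 1 of the 14 (Col27a1) and in 4.35% of promoters, and in none of the 3 mm9 windows printed above. The shares of promoters cover genes of any level, expressed or not. Of 19 matched members below the threshold, 9 held GGGCGG, 4 CCAAT, 4 TATAAA and 2 the NF-κB motif. All of these are matches of letters and not binding sites.

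Collagen chains need a set of enzymes and chaperones to fold, leave the cell and be crosslinked. Of 36 such genes listed, 34 were in the table and 27 were above 1 RPKM. As deposited, 6 were at least 2-fold higher and 1 lower at 1.5 hr, 0 and 12 at 6 hr, and 1 and 3 at 24 hr. Within bins of GC content the counts were 2 and 1, 0 and 2, and 1 and 1, in part from other genes. At 1.5 hr these were Serpinh1 (1.71) and Loxl1 (1.28) higher and Pcolce2 (-1.16) lower, of which only Serpinh1 was called as deposited. At 24 hr they were Serpinh1 (1.196) higher and P4ha3 (-1.04) lower. The background of coding genes is the one given for the collagens at each time. At 24 hr, where 9 of 17 collagen genes were lower, 3 of 27 processing genes were, close to the 12.7% of coding genes.

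Plod2, the lysyl hydroxylase of collagen telopeptides, was the processing gene called higher at 24 hr as deposited. Plod2 was at 0.604 RPKM untreated and 2.10 RPKM at 24 hr (log2 ratio 1.80, 0.94 in GC bins). The genes called lower as deposited were Bmp1, the protease that trims the C-propeptide, at 43.1 and 17.1 RPKM (-1.34), the prolyl hydroxylase subunit gene P4ha3 at 7.09 and 2.88 RPKM (-1.30), and Fkbp10, a collagen chaperone, at 54.3 and 26.0 RPKM (-1.06). In GC bins Bmp1 and Fkbp10 were at -0.71 and -0.60 and P4ha3 at -1.04. Serpinh1, the collagen chaperone HSP47, is added here after its values were seen. It was at 47.8 RPKM untreated, 145 RPKM at 1.5 hr, 27.5 RPKM at 6 hr and 84.0 RPKM at 24 hr. Its log2 ratio was 1.60 after 1.5 hr and 0.81 after 24 hr, 1.71 and 1.196 in GC bins, and so lay opposite in sign to that of Col1a1 at both times.

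Of 8 collagen receptor and uptake genes, 5 were above 1 RPKM. At 24 hr the integrin subunit gene Itga11, whose product binds fibrillar collagen on fibroblasts, was at 0.879 RPKM against 7.04 RPKM untreated (log2 ratio -3.002, -2.81 in GC bins). Mrc2, the gene of the endocytic collagen receptor uPARAP, was at 6.58 against 28.4 RPKM (-2.11, -1.49 in GC bins). Itgb1, the β1 integrin subunit shared by the collagen-binding integrins, was at 33.1 against 11.2 RPKM (1.56, 0.81 in GC bins). Itga11 and Mrc2 were at least 2-fold lower in both scalings. Itgb1 was at least 2-fold higher as deposited and after centring on the coding median (1.45), and not in GC bins.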

How the data were processed

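RNA-seq reads were aligned to mm9 by TopHat, and the authors deposited RPKM per RefSeq transcript, from an in-house script, in columns R1 and R2 per library. The columns were assigned to times by their names in the study's list of sequencing depths. The 24 hr sample has a ChIP text as extract protocol but is RNA-seq by title, treatment and library source. The deposited values have their own scale and were divided by 1 factor, 85.6, the median ratio to the RPKM the study lists (5211 values, 83.5 to 89.9 per library, from the part of that list used here), so RPKM levels and the filter, but not ratios between libraries, rest on it. The table holds no reads, so the reads behind a value are not known. A gene was called when its mean over the 4 libraries was above 1 RPKM and it differed at least 2-fold from untreated, the study's criterion, with no pseudocount. GC content came from GENCODE transcripts (98.1% of coding genes), in 20 bins.

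ChIP-seq reads were aligned by Bowtie, and the authors ran MACS on the 1 library. Their deposited peaks carry a count of tags, a score (from the logarithm of the p-value), fold enrichment and FDR (percent). A deposited signal, the tags per base of a peak, was not used. All 20 of its chromosomes were within the lengths of the mm9 genome used.

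The members and lists were chosen with earlier results of these data known. Values in every library are given for expressed members among the 12 highest untreated levels or called at 2 or more times. Called processing and receptor genes with the 4 largest changes in each direction at 24 hr are named with their untreated and 24 hr values. Python 3.11.15, numpy 2.4.6, pandas 2.3.3, scipy 1.17.1 and matplotlib 3.10.9 were used, and the steps were tested on simulated data.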

Additional observations from a re-analysis of the deposited data

Results flagged for a closer look

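Col7a1 was at least 2-fold different from untreated at each time and in opposite directions. Its log2 ratio was -1.55 after 1.5 hr, 1.56 after 6 hr and -1.24 after 24 hr, with both columns of each library on the same side. Within bins of GC content these were -0.78, 2.44 and -0.22, and in joint bins of GC content and length -0.69, 2.31 and -0.021, so the 6 hr call was kept and the other 2 were not. The difference between times was not tested: a time has a single library, and all share the untreated one.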

How the results depend on the processing

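With 1 library per time and no reads in the table no difference has an error, and no paired analysis was possible because each time has 1 library. No collagen gene called as deposited changed sign in any of the 7 scalings, whereas the processing gene P4ha1, called higher at 1.5 hr (1.16), was at -0.043 in bins of GC content. In either column alone, with a pseudocount of 0.1 RPKM or with the mean over all transcripts of a gene, every count of collagen genes stayed within 1.5 times. Counts of collagen genes at least 2-fold lower at 1.5, 6 and 24 hr (3, 7 and 9 as deposited) were 7, 2 and 10 after centring on the coding median, 6, 2 and 9 with equal sums, 6, 2 and 10 after scaling to a trimmed mean, 5, 2 and 8 in bins of length, 2, 2 and 8 in bins of GC content and 0, 2 and 2 in joint bins, where 1 gene was higher at 1.5 hr (Col4a1, -0.23 when centred) and 1 at 24 hr (Col5a3, -0.19 when centred). Their median log2 ratios at these times were -0.79, -0.13 and -1.25 centred, -0.58, -0.039 and -1.09 with equal sums, -0.77, -0.13 and -1.24 with that mean, -0.71, -0.13 and -0.95 in bins of length, -0.51, -0.051 and -0.87 in bins of GC content and -0.072, 0.0016 and -0.43 in joint bins. They were -0.31, -0.82 and -1.06 with a pseudocount of 1 RPKM, -0.54, -0.92 and -1.24 above 5 RPKM, and -0.56, -0.82 and -1.31 with no filter, where 14, 17 and 25 genes were lower and 2 higher at 1.5 hr. A threshold of 1.5-fold gave 6 and 11 lower at 1.5 and 6 hr, and one of 3-fold gave 0 and 2, with 0 higher at 6 hr. Calls over all coding genes were counted only as deposited, after centring and in bins of GC content. The counts of collagen genes under the other settings thus have no background. Of the genes let in with no filter, 14 were under 0.1 RPKM in every library. Of processing genes, 2 were higher at 1.5 hr, 1 higher and 3 lower at 6 hr and 5 lower at 24 hr after centring, and 2 higher at 1.5 hr, 2 lower at 6 hr and 1 lower at 24 hr in bins of GC content, which were chosen for this list after seeing the data. Of receptor genes, 1 was higher and 1 lower at 6 hr after centring, and in bins of GC content 0 were higher and 1 lower at 1.5 hr, 1 lower at 6 hr and 0 higher at 24 hr. At a fold enrichment of at least 30, 9 of the 17 expressed collagen genes had a peak (52.9%), against 81.7% of coding genes. The causes were not tested. A ratio of Col6a3 to Col6a1 was planned and not run.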
